A study of Mus musculus with 40 samples.

Results

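Hypothalamic astrocytes of sham-operated male mice on a high-fat diet (HFD) were compared with those of sham-operated mice on chow, using the messages bound to astrocyte ribosomes. The comparison took the pull-down libraries labelled sham and HFD (6 libraries, sample numbers 1, 9, 13, 16, 18 and 20) and those labelled sham and chow (7 libraries, sample numbers 7, 8, 12, 15, 19, 21 and 23), which are 13 of the 40 libraries of the series. All mice, chow controls included, carried the Aldh1l1 eGFP-L10a transgene, in which regulatory DNA of the astrocyte gene Aldh1l1 drives a green fluorescent tag fused to the ribosomal protein L10a. The diets lasted 4 weeks, and hypothalami were microdissected. Each sample number also has a supernatant library, the fraction left by the pull-down, and 7 samples came from castrated mice on HFD (labelled GDX or ORX); both were used here only to set values beside those of the sham pull-downs. The labels give no strain, age or diet composition, and do not say whether a sample number is 1 mouse or a pool, so the errors below measure the spread between samples.

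Translating ribosome affinity purification (TRAP) captures tagged ribosomes with the messages they carry. A pull-down is meant to report messages on astrocyte ribosomes, and does not measure rates of translation, proteins or metabolites. Messages of other cell types were also present in these pull-downs, as described below. Hypothalamic astrocytes take up glucose and lipids, store glycogen, make cholesterol and lactate, clear glutamate and potassium around the neurons that control feeding, and carry receptors for leptin and insulin. High-fat feeding is known for inducing a reactive state in hypothalamic astrocytes of rodents, marked by glial fibrillary acidic protein (Gfap), and ketone body production and fatty acid oxidation are astrocyte functions that respond to dietary fat.

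The sham pull-downs held 10227859 to 20792147 counts on HFD and 10663589 to 14066997 counts on chow. HFD library 20 had the highest total; the other 5 HFD libraries had at most 11874053. Gm42418, an RNA gene that overlaps a ribosomal RNA repeat, took 18.2% of the counts in HFD library 1 and 1.60% to 4.54% in the other HFD libraries, and 13.3% in chow library 8 and 1.07% to 8.51% in the other chow libraries. Mitochondrially encoded messages, which cytosolic ribosomes do not translate, took 0.702%, 0.781% and 1.32% on HFD (lowest, median and highest) and 0.654%, 0.749% and 1.14% on chow, with the highest values again in HFD library 1 and chow library 8. Neither the total, these 2 shares nor the number of genes with at least 10 counts differed detectably between the diets (exact permutation test of the means over 1716 splits, two-sided, adjusted p = 0.865 for each of the 4). The smallest p this design allows is 0.000583.

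The label of the pull-down was checked against marker genes. All 22 astrocyte markers were higher in the sham pull-downs than in the sham supernatants (edgeR, adjusted p under 0.05; of all 15629 genes tested 83.4% were called, 41.4% higher and 42% lower), with a median log2 fold change of 4.57. On the scale of counts set to a common library total (CPM), Aldh1l1 itself had 134, 156 and 171 CPM in the HFD pull-downs (lowest, median and highest) and 129, 147 and 183 CPM in the chow pull-downs. All 21 neuronal and all 14 oligodendrocyte markers were lower in the pull-down, with medians of −3.78 and −3.84, but their messages were not absent: the neuronal synaptic gene Snap25 had 28.3 to 86.9 CPM on HFD and 25.8 to 56.3 CPM on chow. Endothelial markers were called higher in the pull-down for 12 of 13 genes and lower for 1. Mural markers were called higher for 5 of the 9 tested and lower for 2, beside 41.4% and 42% of all genes.

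**Figure D1:**
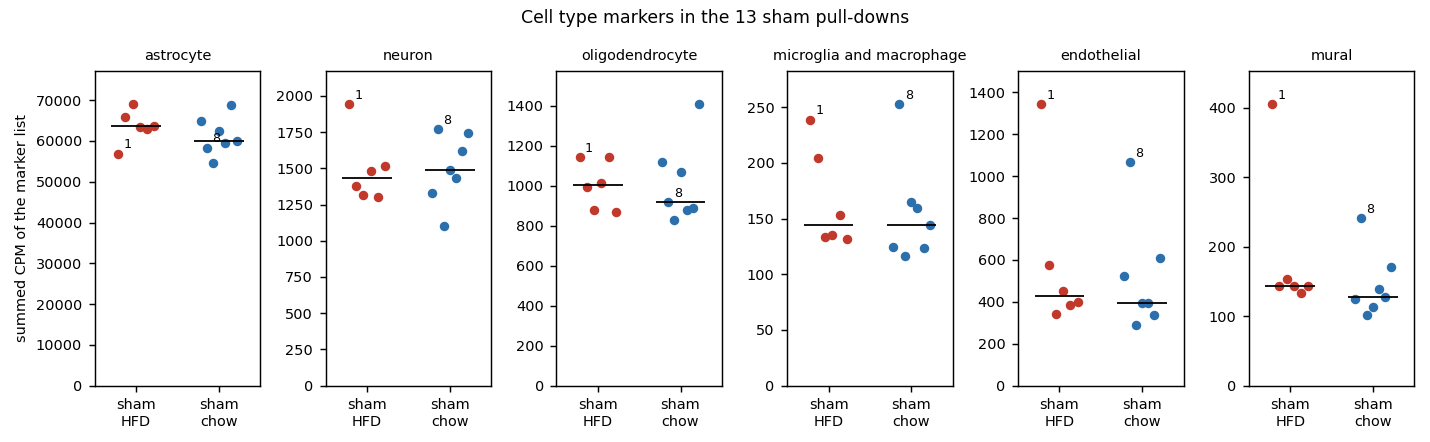
Summed CPM of 6 marker lists (y axis, from 0) in the 6 HFD and 7 chow sham pull-downs; each point is a library and the line is the group median. Libraries 1 and 8 are numbered and hold the highest endothelial and mural sums of their diets.

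HFD library 1 and chow library 8 stood apart in the same way. The summed endothelial markers reached 1343 CPM in HFD library 1, with 342 to 574 CPM in the other HFD libraries, and 1067 CPM in chow library 8, with 288 to 609.5 CPM in the other chow libraries, as the plot of marker sums shows. Flt1, a vascular endothelial growth factor receptor, had 485 CPM in HFD library 1 and 360 CPM in chow library 8, and Snap25 had its highest value of either diet in HFD library 1. Chow library 12 departed in another direction: relative to the chow mean, its median respiratory chain gene was 0.34 higher and its median cholesterol synthesis gene 0.36 lower on the log2 scale. In tissue samples of this kind, fewer cells of a type and less RNA per cell cannot be told apart. The astrocyte enrichment of the pull-down over the supernatant of the same number (median log2 difference over the 22 markers) was 2.95 in HFD library 1 and 4.46 to 5.40 in the other HFD libraries, and 3.37 in chow library 8 and 3.98 to 5.87 in the other chow libraries. The median log2 fold changes of gene lists below were small and moved with single libraries: of 25 function lists, 17 had a median that changed sign when 1 of the 13 libraries was left out. The 8 that kept their sign were cholesterol synthesis, fatty acid synthesis, glycolysis, the nuclear-encoded respiratory chain, leptin and insulin signalling, the unfolded protein response, hypoxia and steroid receptors.

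Across all genes, no message passed the threshold for a difference between the diets. With edgeR, 0 of 14059 genes (0%) passed an adjusted p of 0.05, and 240 genes (1.71%) had an unadjusted p under 0.05, of which 114 (0.811%) were higher and 126 (0.896%) lower on HFD. DESeq2 and limma voom also called 0 genes, with 276 (1.96%) and 244 (1.74%) at an unadjusted p under 0.05. Where no gene differs, a share of 0.05 is expected on average, so these shares are low, and the reason was not tested. The count of genes called stayed at 0 when any 1 of the 13 libraries was left out. Only DESeq2 with no filter on low counts called a gene, 1 of 25489 (0.00392%): 1700047I17Rik2 had 0 counts in all 6 HFD pull-downs, and in the chow pull-downs 64 and 119 counts in 2 libraries and 0 in the other 5, too few for the filter of the other fits. In the supernatants it had 0 counts in 5 of 6 sham HFD libraries and 1 of 7 sham chow libraries. In castrated mice on HFD it had 0 counts in all 7 pull-downs and 121 to 343 counts in the 7 supernatants. The median log2 fold change over all genes was −0.01, and 52.8% of genes lay below 0.

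The fits bound how large an unseen diet effect could be, and the bound depends on the level of a message. For the 3291 genes over 50 CPM the median standard error (SE) of the log2 fold change was 0.105, and the 95% confidence interval lay inside a 1.5-fold change in either direction for 96.4% of them. That share was 86.1% for the 6903 genes at 5 to 50 CPM and 14.5% for the 3865 genes under 5 CPM, where a 2-fold change was bounded for 65.0%. Smaller effects were bounded less often: an interval inside 1.25-fold was reached by 66.6% of genes over 50 CPM and by 31.0% of all genes tested. These intervals are per gene and are not adjusted for the number of genes.

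**Figure D2:**
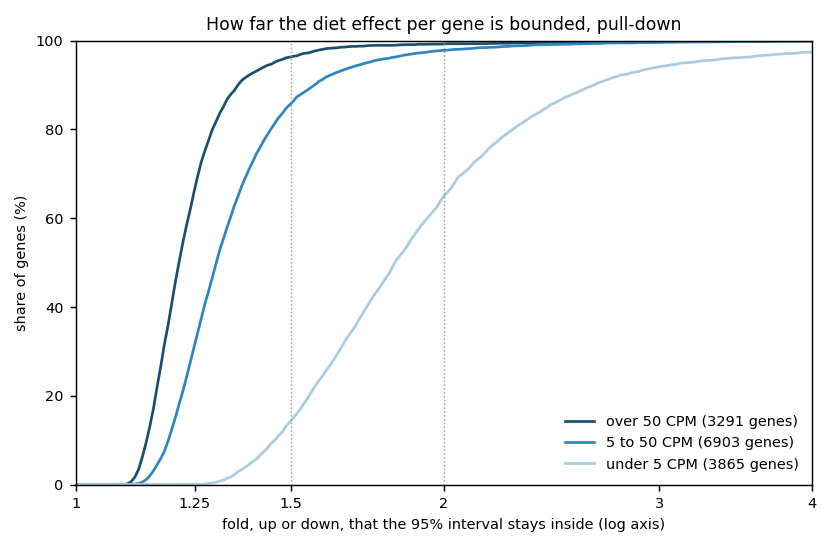
Share of genes (y axis, percent) whose 95% confidence interval of the HFD over chow fold change stays inside a given fold in either direction (x axis, log scale), by mean level in the sham pull-downs. At 1.5-fold the curves stand at 96.4%, 86.1% and 14.5% for genes over 50, at 5 to 50 and under 5 CPM.

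The genes nearest to a call were picked by the smallest p in each direction among genes with a mean of at least 5 CPM, so their size and direction are a description of this selection. Tmc7, a member of the transmembrane channel-like family (chromosome 7, 118535841 to 118584736, minus strand, GRCm38), had 49.0, 53.9 and 70.9 CPM on HFD and 34.7, 41.1 and 47.4 CPM on chow (lowest, median and highest). The 2 diets did not overlap, and the log2 fold change was 0.43 ± 0.10 (SE; edgeR unadjusted p = 0.000176, adjusted p = 1.00). Castrated mice on HFD had 54.2 ± 6.25 CPM (SD, n = 7). Tmc7 was concentrated in the pull-down, with a log2 fold change over the supernatant of 4.12.

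Others nearest to a call upwards were Safb, a nuclear matrix protein that binds RNA (46.5 ± 6.25 CPM on HFD and 35.8 ± 5.06 CPM on chow), the cadherin Cdh19 (35.2 ± 3.29 and 27.6 ± 5.70 CPM), the protocadherin Fat4 (9.47 ± 2.15 and 7.05 ± 1.11 CPM) and the actin-oxidising enzyme Mical2 (27.7 ± 5.63 and 20.9 ± 3.15 CPM). Nell2, a secreted protein made mainly by neurons, had 13.1, 24.0 and 31.0 CPM on HFD and 9.37, 15.8 and 21.5 CPM on chow. Its highest value was in HFD library 1 and its highest chow value in library 8, which are the libraries rich in neuronal markers; the part of these markers in its difference was not tested. Fgd4, Hltf, Ccdc117, Nol4 and Zc3h10 made up the rest of this group, with log2 fold changes of 0.24, 0.31, 0.32, 0.33 and 0.39.

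Downwards, Mat2a was the most abundant of the genes nearest to a call. It encodes the methionine adenosyltransferase that makes S-adenosylmethionine, the methyl donor of the cell, and lies on chromosome 6 (72432799 to 72439558, minus strand). Mat2a had 189, 238 and 267 CPM on HFD and 255, 277 and 358 CPM on chow. HFD library 1 was the only HFD library above the lowest chow library, and the log2 fold change was −0.39 ± 0.12 (edgeR adjusted p = 1.00). Castrated mice on HFD had 243 ± 45.1 CPM, and the sham supernatants had 198 ± 23.9 CPM on HFD and 198 ± 11.8 CPM on chow.

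Hopx, a homeodomain protein without DNA binding that marks some astrocytes and neural stem cells (chromosome 5, 77086988 to 77115121, minus strand), had 8.67, 10.7 and 17.0 CPM on HFD and 8.23, 18.5 and 21.7 CPM on chow. The low chow value was library 8; the other 6 chow libraries had at least 16.2 CPM, and the only HFD library in that range was library 18. Castrated mice on HFD had 16.1 ± 2.31 CPM. Cirbp, a cold-inducible RNA-binding protein, had 58.7 ± 8.47 CPM on HFD and 79.4 ± 18.1 CPM on chow, with 53.8 ± 12.1 CPM in castrated mice on HFD. Plekhd1 had 7.20 ± 2.55 CPM on HFD and 12.1 ± 3.59 CPM on chow, with 6.57 ± 1.74 CPM in castrated mice on HFD. Comparisons of both HFD groups with chow share the chow libraries, so these side-by-side values are not independent support.

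Rsph3b, a radial spoke homologue, had the largest difference of this group and the most uneven values. It had 1.05, 2.37 and 5.13 CPM on HFD and 0.541, 16.3 and 24.9 CPM on chow, with chow libraries 7 and 23 at 3.13 and 0.541 CPM and the other 5 chow libraries at 9.82 CPM or more. Castrated mice also split, from 1.06 to 20.5 CPM. Its estimated counts differ between the 2 deposited tables, so these values are uncertain. Srsf3, a splicing factor (112 ± 10.8 CPM on HFD and 141 ± 31.6 CPM on chow), and the mitochondrial regulator Nrf1 (10.0 ± 1.65 and 12.6 ± 1.53 CPM) were also nearest to a call downwards, as were Spg21, Arfgap1, Prune2 and Pop7, with log2 fold changes of −0.22, −0.26, −0.31 and −0.32.

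**Figure D3:**
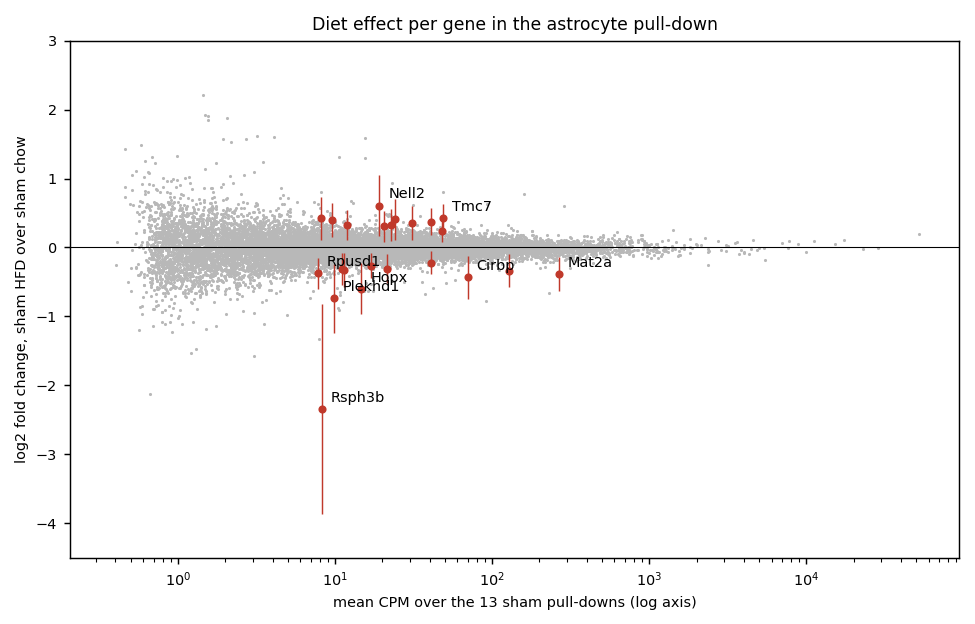
log2 fold change of HFD over chow (y axis) against mean CPM over the 13 sham pull-downs (x axis, log scale) for the genes tested; 1 gene lies outside the plotted range. Red points with 95% confidence intervals are the named genes nearest to a call, 11 higher and 12 lower on HFD, and none of the 14059 genes passed an adjusted p of 0.05.

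In 5 of 14059 genes (0.0356%) the HFD and chow pull-downs did not overlap. Of these, 4 (0.0285%) were higher on HFD. Besides Tmc7 these were Smg9, a subunit of the nonsense-mediated decay complex (5.38 to 8.05 CPM on HFD and 4.40 to 5.34 CPM on chow), the deubiquitinase Usp45 (7.62 to 11.2 and 4.87 to 7.56 CPM) and the centriole kinase Plk4 (3.21 to 5.51 and 0.957 to 3.14 CPM). The 1 that was lower (0.00711%) was Rpusd1, a pseudouridine synthase family member, with 5.64 to 7.69 CPM on HFD and 7.75 to 9.21 CPM on chow. Adjusted p was 1.00 for each with edgeR. Castrated mice on HFD lay within or across both ranges for Smg9 (3.42 to 5.59 CPM) and Rpusd1 (6.75 to 8.86 CPM), and above every sham chow library for Usp45 (7.60 to 12.8 CPM).

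**Figure D4:**
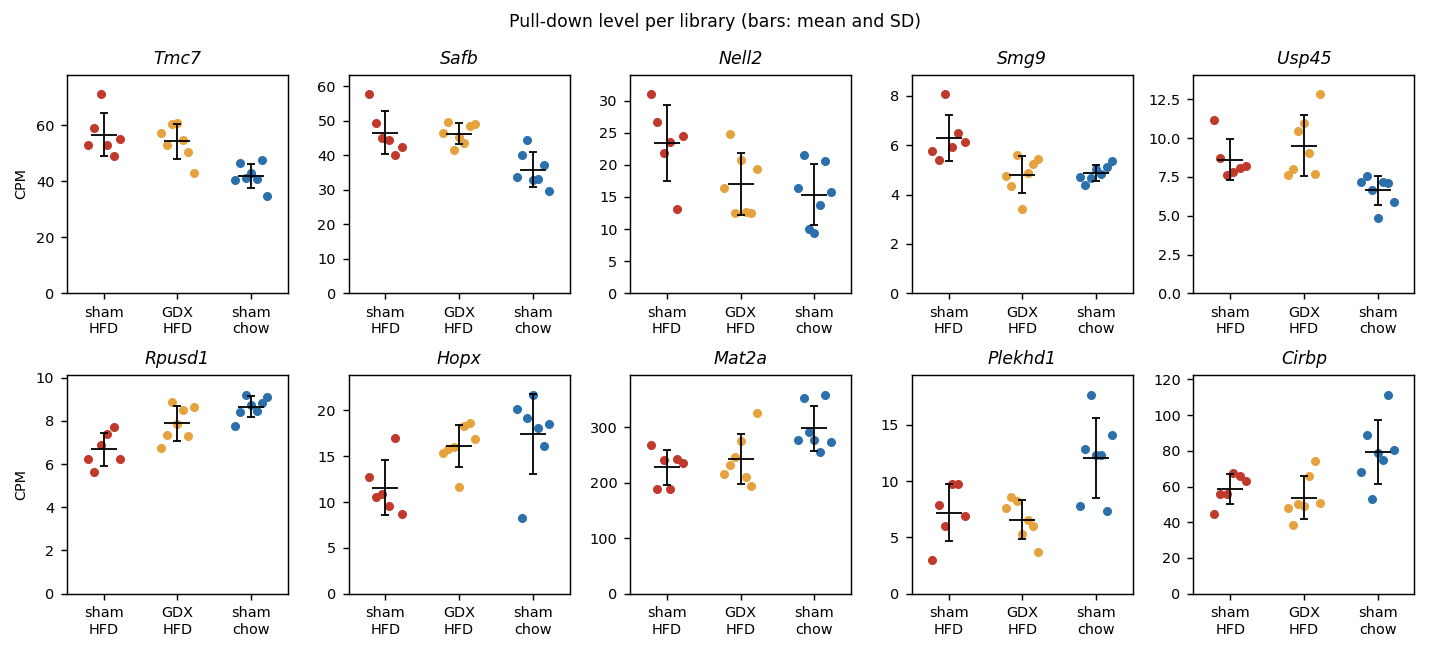
CPM per pull-down library (y axis, from 0) of 10 of the genes named as nearest to a call or without overlap, in sham HFD (n = 6), GDX HFD (n = 7) and sham chow (n = 7); bars are the mean and SD. Tmc7, Smg9, Usp45 and Rpusd1 show no overlap between sham HFD and sham chow.

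Genes of ketone body production and fatty acid oxidation were next described as a group. Of 28 genes in this list 27 were tested, 0 passed, 12 lay below 0, and the median log2 fold change was 0.01, close to the −0.01 of all genes. Over the fits that each left out 1 library, 4 to 16 of the 27 lay below 0 and the median ranged from −0.01 to 0.06; the low count and the high median were those without chow library 12. Ppara, the nuclear receptor that switches on fatty acid oxidation in liver, had 47.2, 52.2 and 59.1 CPM on HFD and 37.3, 46.0 and 54.7 CPM on chow (0.25 ± 0.09, SE). Every HFD library lay above the chow median, and chow library 12 was the highest chow library. Of the enzymes of fatty acid oxidation, Cpt1a, which admits fatty acids to mitochondria, had 99.6 ± 3.38 CPM on HFD and 99.9 ± 6.55 CPM on chow (95% confidence interval of the log2 fold change −0.14 to 0.13), and the trifunctional subunit Hadha had 259.9 ± 18.0 and 258 ± 32.5 CPM (−0.17 to 0.20). Bdh1, which interconverts ketone bodies, had 91.8 ± 8.14 CPM on HFD and 97.2 ± 16.4 CPM on chow.

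Cholesterol synthesis genes had the lowest median of the 25 function lists in the pull-down. Astrocytes supply the brain with cholesterol, and sterol-responsive transcription raises these enzymes together. All 24 genes were tested, 0 passed, and 21 lay below 0, beside 52.8% of all genes; the median log2 fold change was −0.14. This tendency was known from earlier results of these data and is not independent evidence. Fdft1, squalene synthase, had 47.3, 58.1 and 68.9 CPM on HFD and 52.8, 73.9 and 76.4 CPM on chow (−0.25 ± 0.12). Msmo1, a sterol C4 demethylase, had 177, 193 and 212 CPM on HFD and 158, 226 and 253 CPM on chow (−0.21 ± 0.10). The lowest of the 13 libraries was HFD library 1 for Fdft1 and a chow library for Msmo1, and the diets overlapped for both genes.

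The squalene epoxidase Sqle had 36.2 ± 3.15 CPM on HFD and 41.1 ± 5.99 CPM on chow (95% confidence interval of the log2 fold change −0.41 to 0.04). Hmgcs1, the cytosolic synthase at the head of the pathway, had 636 ± 84.5 CPM on HFD and 660.3 ± 68.7 CPM on chow, and Srebf2, the transcription factor of the pathway, 72.1 ± 6.05 and 67.6 ± 9.75 CPM. Relative to the chow mean, the median gene of the list stood between −0.17 and −0.01 in the 6 HFD libraries and between −0.36 and 0.13 in the 7 chow libraries, where library 12 had −0.36 and library 7 had −0.09. Without chow library 12 the list had a median of −0.16 with 22 of 24 genes below 0, and over the 13 fits that each left out 1 library the median ranged from −0.16 to −0.09. In the supernatants of the same sample numbers, where 50.3% of all genes lay below 0, 12 of these 24 did and the median was −0.0015.

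Promoters of this pathway are known to carry CCAAT boxes and sterol response elements. The promoters of 2 members, from 250 bases before to 50 bases after the annotated start, are shown because they differ in these letters: Hmgcs1 (chr13:119690101-119690400, plus strand) and Msmo1 (chr8:64733529-64733828, minus strand), both RefSeq on GRCm38.p6 and written 5′ to 3′ along the gene. Capitals mark CCAAT or its complement ATTGG and, in Hmgcs1, a match to TCACNCCAC, searched on both strands.
Hmgcs1: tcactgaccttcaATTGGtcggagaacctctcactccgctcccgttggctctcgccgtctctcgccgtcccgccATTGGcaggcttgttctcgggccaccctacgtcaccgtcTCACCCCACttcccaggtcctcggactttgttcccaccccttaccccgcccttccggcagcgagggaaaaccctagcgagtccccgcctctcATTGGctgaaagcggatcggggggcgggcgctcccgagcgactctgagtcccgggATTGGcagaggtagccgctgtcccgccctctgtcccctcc
Msmo1: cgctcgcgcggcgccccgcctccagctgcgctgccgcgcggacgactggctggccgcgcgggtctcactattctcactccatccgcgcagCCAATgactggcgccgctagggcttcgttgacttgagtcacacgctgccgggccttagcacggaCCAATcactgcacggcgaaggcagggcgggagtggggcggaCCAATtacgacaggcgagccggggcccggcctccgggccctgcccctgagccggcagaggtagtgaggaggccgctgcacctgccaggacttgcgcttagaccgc
Hmgcs1 held 4 CCAAT matches and 1 match to TCACNCCAC, and Msmo1 held 3 and 0. CCAAT occurred in 16 of the 18 promoters of the list that had an entry (88.9%), beside 37.9% of 27025 promoters in the table and 38.8% of those of tested genes. TCACNCCAC occurred in 1 of the 18, beside 1.2% of all promoters. A match describes letters and does not show binding, and the log2 fold changes of these 2 members were −0.05 ± 0.13 and −0.21 ± 0.10.

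Fatty acid synthesis and desaturation genes lay below 0 in 14 of 18 cases, with a median of −0.08 and 0 passing. The synthase Fasn had 194, 209 and 214 CPM on HFD and 128, 241 and 317 CPM on chow, so the HFD libraries sat inside the chow range. Scd2, the main brain desaturase, had 5334 ± 461 CPM on HFD and 5388 ± 910.0 CPM on chow, and the carboxylase Acaca had 70.3 ± 5.20 and 66.3 ± 10.2 CPM. Without chow library 12 the median was −0.11, and that library was the lowest of the 13 for the list.

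Lipid transport and storage genes were split, with 15 of 27 tested genes below 0, a median of −0.02 (0.0006 without HFD library 1) and 0 passing. Plin2, the coat protein of lipid droplets, had 16.1, 22.3 and 25.6 CPM on HFD and 24.0, 26.2 and 34.1 CPM on chow (−0.30 ± 0.11), with HFD libraries 16 and 18 inside the chow range. Plin4, another droplet coat protein, pointed the other way with 6.00 ± 1.78 CPM on HFD and 4.16 ± 1.29 CPM on chow (0.53 ± 0.27), although its estimates differ between the 2 deposited tables. Apoe, the main lipid carrier secreted by astrocytes, had 22874 ± 3219 CPM on HFD and 23247 ± 2742 CPM on chow (95% confidence interval of the log2 fold change −0.32 to 0.27). Lipoprotein lipase, Lpl, was scarce, at 3.26 ± 1.05 and 2.34 ± 1.03 CPM.

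**Figure D5:**
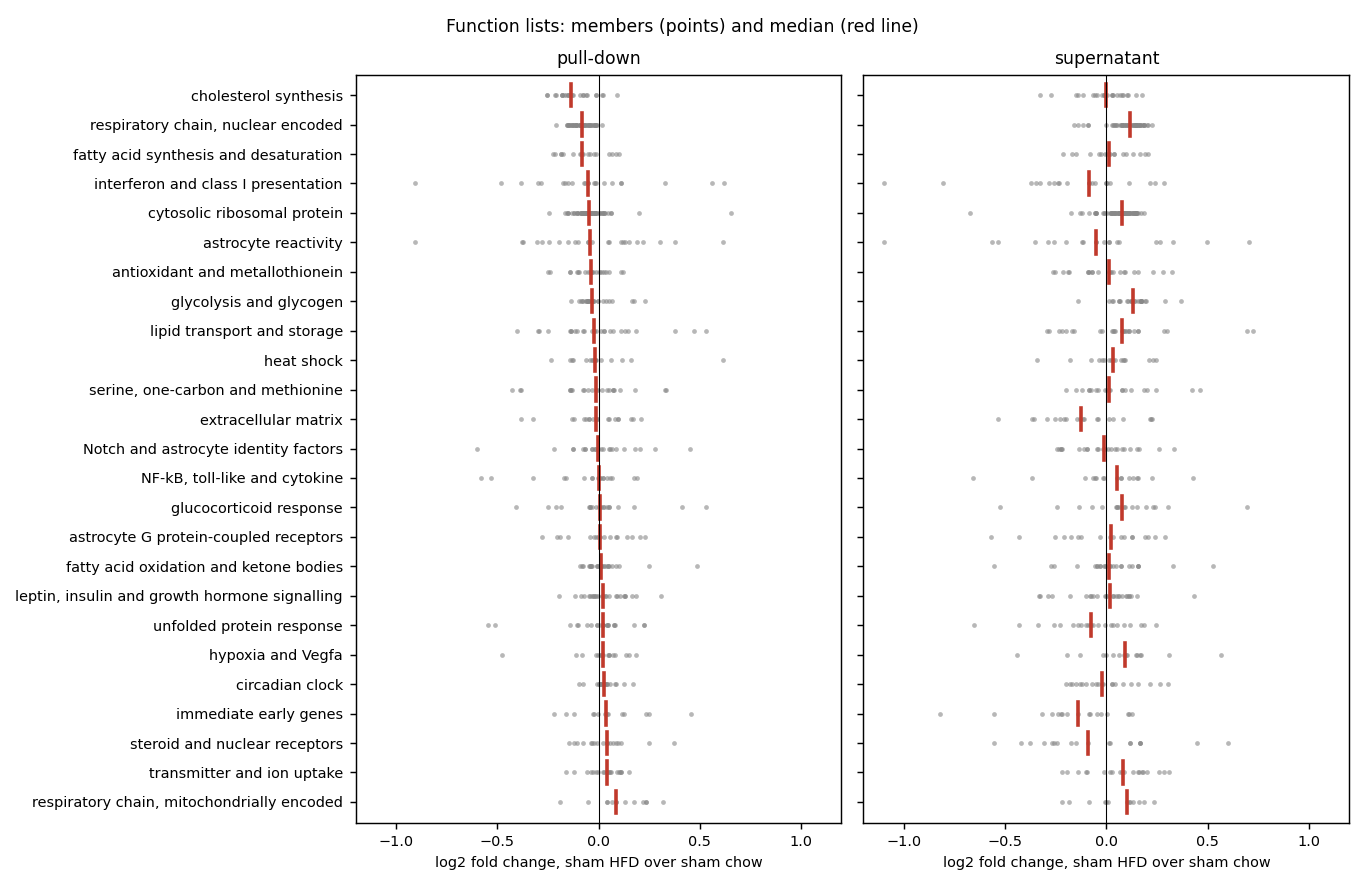
log2 fold change of HFD over chow (x axis) for the tested members of the 25 function lists (rows), in the sham pull-downs (left) and sham supernatants (right); points are genes and red lines are list medians. Cholesterol synthesis has the lowest pull-down median at −0.14, while nuclear-encoded respiratory chain genes have −0.08 in the pull-down and 0.12 in the supernatant.

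Nuclear-encoded respiratory chain genes lay below 0 in 50 of 51 cases, but by small amounts: the median was −0.08, the range −0.21 to 0.01, and 0 passed. Cox5a, a subunit of cytochrome oxidase, had 266, 272 and 296 CPM on HFD and 274, 306 and 331 CPM on chow, Ndufs1 of complex I had 134 ± 11.5 and 135 ± 9.67 CPM, and Atp5b of the ATP synthase had 489 ± 66.1 and 534 ± 110.1 CPM. The difference was not spread evenly over the libraries. Relative to the chow mean, the median gene stood between −0.34 and 0.06 on HFD and between −0.23 and 0.34 on chow, with HFD library 1 at the low end and chow library 12 at the high end. Without HFD library 1, 39 of 51 genes lay below 0 with a median of −0.03, and without chow library 12, 35 of 51 with a median of −0.02.

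The 13 mitochondrially encoded genes had a median of 0.09, with 2 below 0 and 0 passing. The complex I gene mt-Nd1 had 493, 561 and 1102 CPM on HFD and 359, 511 and 858 CPM on chow. The HFD maximum was library 1, without which 9 of 13 genes lay below 0 and the median was −0.05. The direction of this list therefore depended on 1 library.

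Glycolysis and glycogen genes lay below 0 in 19 of 26 cases, with a median of −0.03 and 0 passing, and 23 of the 26 intervals lay inside 1.5-fold. Without HFD library 1, 14 of 26 lay below 0 with a median of −0.02, and without chow library 12, 15 of 26 with a median of −0.006. Hexokinase Hk1 had 141 ± 7.69 CPM on HFD and 149 ± 11.0 CPM on chow, and lactate dehydrogenase Ldha had 85.6 ± 5.70 and 90.4 ± 9.73 CPM. Pygb, the brain glycogen phosphorylase, had 413, 423 and 449 CPM on HFD and 324, 384 and 451 CPM on chow (0.17 ± 0.10), so that every HFD library lay above the chow median. In the supernatant 1 of 26 genes lay below 0, with a median of 0.13.

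Receptors and mediators of leptin, insulin and growth hormone had a median of 0.02, with 12 of 26 below 0 and 0 passing. Insr, the insulin receptor, had 26.6, 28.8 and 30.0 CPM on HFD and 22.9, 25.9 and 29.7 CPM on chow, and its 95% confidence interval of −0.03 to 0.29 kept it inside 1.25-fold. Lepr, the leptin receptor, was scarce at 3.98 ± 1.08 CPM on HFD and 3.65 ± 1.70 CPM on chow, where the interval of −0.43 to 0.68 bounds it poorly. Socs3, an inhibitor that leptin and cytokines induce, had 2.84 ± 1.38 and 2.26 ± 0.343 CPM. Of the lists of steroid and nuclear receptors and of the glucocorticoid response, 0 of 19 and 0 of 20 tested genes passed. The glucocorticoid target Tsc22d3 had 227 ± 65.8 CPM on HFD and 219 ± 58.4 CPM on chow.

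Inflammatory genes gave no call. In the list of NF-kB, toll-like receptor and cytokine genes 19 of 25 genes were tested, 9 lay below 0 and the median was 0.0038 (−0.02 without HFD library 1 and −0.04 without chow library 12); Il1b, Il6, Tnf, Ccl2, Cxcl1 and Tnfaip3 were too scarce to test. Nfkbia, the inhibitor that NF-kB itself induces, had 84.1, 95.7 and 135 CPM on HFD and 82.0, 97.3 and 150.1 CPM on chow, and the kinase Ikbkb had 25.7 ± 5.43 and 25.3 ± 4.89 CPM. Tlr2, a receptor for microbial lipoproteins that is mainly made by microglia, had 1.92, 2.15 and 3.30 CPM on HFD and 2.21, 3.39 and 5.05 CPM on chow (−0.58 ± 0.26). Of the 19 list members tested between the fractions, 18 were called higher in the pull-down and 0 lower, beside 41.4% and 42% of all genes. The cells from which the Tlr2 message came were not tested. Interferon and class I presentation genes had 16 of 23 below 0 with a median of −0.05 and 0 passing; the peptide transporter Tap1 had 6.93 ± 1.19 CPM on HFD and 9.73 ± 2.48 CPM on chow (−0.48 ± 0.20), and beta-2 microglobulin, B2m, 351 ± 25.5 and 364 ± 47.5 CPM.

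Markers of astrocyte reactivity gave 0 calls among 24 tested genes of 33, with 13 below 0 and a median of −0.04. Gfap had 426, 494 and 592 CPM on HFD and 385, 583 and 686 CPM on chow, with a log2 fold change of −0.15 ± 0.13 and a 95% confidence interval of −0.42 to 0.12, which excludes an increase of more than 1.25-fold at this unadjusted level. Vim, vimentin, had 97.5 ± 14.0 CPM on HFD and 105 ± 21.3 CPM on chow, and Serpina3n, a protease inhibitor of reactive astrocytes, had 13.4, 29.8 and 37.1 CPM on HFD and 14.2, 27.2 and 33.7 CPM on chow. Hspb1, a small heat shock protein that vessels and reactive glia also make, had 119 CPM in HFD library 1 and 18.7 to 31.9 CPM in the other HFD libraries, against 59.5 CPM in chow library 8 and 11.4 to 30.9 CPM in the other chow libraries. Without HFD library 1 the median of the reactivity list was −0.17 with 16 of 24 genes below 0. Without chow library 19 that median was 0.11.

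Genes of transmitter and ion uptake, the core work of astrocytes around synapses, had the tightest bounds of these lists: all 20 intervals lay inside 1.5-fold, 7 genes lay below 0 and the median was 0.04. Without chow library 12, 11 of the 20 lay below 0 and the median was −0.009. The glutamate transporter Slc1a2 had 17926 ± 1792 CPM on HFD and 16660 ± 2622 CPM on chow, its relative Slc1a3 had 3781 ± 589.5 and 3885 ± 389.6 CPM, glutamine synthetase Glul had 8086 ± 858 and 7547 ± 819 CPM, and the potassium channel Kcnj10 had 1095 ± 135 and 1138 ± 153 CPM. Astrocyte G protein-coupled receptors had a median of 0.01 (−0.02 without chow library 12) with 0 of 17 passing; the endothelin receptor Ednrb had 964 ± 100.2 CPM on HFD and 1069.7 ± 176 CPM on chow, and the adenosine receptor Adora1 374 ± 95.4 and 379.9 ± 55.5 CPM. Among Notch and identity factors, Sox9 had 1145 ± 237 CPM on HFD and 1134 ± 122 CPM on chow, and Notch1 had 107, 127 and 145 CPM on HFD and 81.1, 113 and 126 CPM on chow (0.20 ± 0.10).

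Serine, one-carbon and methionine genes, which include Mat2a, had a median of −0.01 (0.009 without HFD library 1), with 13 of 23 below 0, a range of −0.43 to 0.33 and 0 passing. The lowest was the scarce thymidylate synthase Tyms, with 1.68 CPM on HFD and 2.26 CPM on chow (means). Phgdh, the entry enzyme of serine synthesis, had 229 ± 27.0 CPM on HFD and 231 ± 15.7 CPM on chow, and Mtr, methionine synthase, 9.87 ± 1.36 and 7.82 ± 1.97 CPM (0.33 ± 0.16). Clock genes lay below 0 in 3 of 20 cases but by little, with a median of 0.03 and a range of −0.09 to 0.17: Per2 had 22.0 ± 4.93 CPM on HFD and 19.5 ± 3.86 CPM on chow, Arntl 9.53 ± 4.15 and 9.41 ± 2.79 CPM, and Nr1d1 58.1 ± 8.12 and 56.3 ± 9.42 CPM. Over the fits that each left out 1 library, 4 to 10 of the clock genes lay below 0.

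Immediate early genes had a median of 0.04 (−0.09 without HFD library 1 and −0.03 without chow library 12) with 0 of 14 tested passing, and Fos had 6.46, 12.7 and 18.6 CPM on HFD and 7.89, 10.8 and 12.8 CPM on chow. The lists of heat shock (17 tested), unfolded protein response (23), antioxidant and metallothionein (24), hypoxia (17) and extracellular matrix genes (20) had medians of −0.02, 0.02, −0.04, 0.02 and −0.01, and 0 members passed in each. The antioxidant median was 0.02 without HFD library 1 and 0.01 without chow library 12, and the heat shock median was 0.04 without chow library 12. Hspa8, a constitutive chaperone, had 658 ± 62.0 CPM on HFD and 669.8 ± 169.7 CPM on chow. The chaperone Hspa5, which rises in endoplasmic reticulum stress, had 368 ± 22.9 CPM on HFD and 357 ± 35.5 CPM on chow. Metallothionein Mt1 had 4983 ± 932 and 5028 ± 582 CPM, and Vegfa, a growth factor for vessels, 53.0, 57.3 and 63.2 CPM on HFD and 38.8, 53.2 and 59.6 CPM on chow.

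Cytosolic ribosomal protein genes lay below 0 in 65 of 79 cases with a median of −0.05 and 0 passing. Their direction turned on HFD library 1: without it 26 of 79 lay below 0 and the median was 0.03, and without chow library 12, 40 of 79 lay below 0 with a median of −0.0013. Rpl10a, which encodes the protein that carries the tag in these mice, had 242, 294 and 355 CPM on HFD and 263, 321 and 326 CPM on chow, with no distinction here between the endogenous and the tagged message.

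Messages of other cell types were not called either, and the direction of several lists turned on HFD library 1. Endothelial markers lay above 0 for 12 of 13 genes with a median of 0.22, whereas without HFD library 1 all 13 lay below 0 with a median of −0.25, and without the 4 pull-downs over 10% Gm42418 (HFD 1, chow 8 and castrated 11 and 22) the median was 0.04. Neuronal markers had a median of 0.03, or −0.15 without HFD library 1, and microglial markers 0.07, or −0.03. Leaving out another single library moved these lists upwards. The highest such medians were 0.52 for endothelial, 0.13 for neuronal and 0.26 for microglial markers. Tanycyte and ependymal markers had a median of −0.15 with 8 of 12 tested genes below 0 and 4 above. Foxj1, which drives motile cilia, had 11.7, 14.9 and 18.0 CPM on HFD and 15.2, 17.6 and 21.0 CPM on chow (−0.28 ± 0.12). Dynlrb2, another member of this list, pointed the other way with a log2 fold change of 0.17. The pituitary hormone genes Gh, Prl and Lhb did not pass the count filter, while Cga had 16.0 CPM in HFD library 1.

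Feeding peptides of arcuate neurons, Pomc, which restrains feeding, and Npy and Agrp, which promote it, were carried at low levels in the pull-down. Pomc had 18.1, 23.6 and 73.9 CPM on HFD and 10.6, 13.6 and 24.7 CPM on chow; the maximum was HFD library 1, and 2 of the 7 chow libraries, 8 and 23, lay within the HFD range. Its log2 fold change was 0.93 ± 0.38, or 0.48 without HFD library 1, and 0.60 without the 4 pull-downs over 10% Gm42418. Npy had 2.63, 4.65 and 6.56 CPM on HFD and 4.18, 5.41 and 12.5 CPM on chow, where the chow maximum was library 8. Agrp had 0.991 ± 0.504 CPM on HFD (0.192 to 1.62 CPM) and 1.37 ± 2.14 CPM on chow. The chow mean rested on library 8 with 6.22 CPM, while the other chow libraries had 0.387 to 0.783 CPM. The direction of Agrp is therefore not settled, and its interval of −1.85 to 0.90 bounds it poorly. Over the list of hypothalamic neuropeptides 0 of 20 tested genes passed and 10 lay below 0, but 16 of 20 did without HFD library 1. The number below 0 ranged from 4 to 16 over the fits that each left out 1 library.

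The supernatants of the same sham sample numbers gave 0 calls of 14628 genes with edgeR, with 206 (1.41%) at an unadjusted p under 0.05, and 0 with DESeq2 (195 unadjusted, 1.33%) and limma voom (214, 1.46%). The test of whether the diet effect differed between pull-down and supernatant gave 0 calls of 15629 genes, with 399 (2.55%) at an unadjusted p under 0.05. Rpusd1 had an interaction of −0.63 ± 0.18 (pull-down minus supernatant difference in log2 fold change; edgeR adjusted p = 0.970), Tmc7 1.06 ± 0.42 and Mat2a −0.38 ± 0.16. These genes were named for their pull-down values, which the interaction reuses, so their terms describe this selection. Tmc7 had a log2 fold change of 0.43 in the pull-down alone. Of the 25 function lists, 12 had medians of opposite sign in the 2 fractions. Nuclear-encoded respiratory chain genes had a median of −0.08 in the pull-down and 0.12 in the supernatant, with 47 of 51 interaction terms below 0, beside 50.6% of the terms of all genes. Glycolysis genes had −0.03 and 0.13, with 24 of 26 below 0, and cytosolic ribosomal protein genes had −0.05 and 0.08, with 70 of 79 below 0. In these 3 lists 0 members passed, and their pull-down medians moved with HFD library 1 and chow library 12 as given above. The pattern was not particular to them. The 22 astrocyte markers had medians of 0.02 in the pull-down and 0.18 in the supernatant, with 18 of 22 interaction terms below 0.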

How the data were processed

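Isolation of polyadenylated RNA used the Dynabeads mRNA DIRECT kit and libraries the QuantSeq 3' FWD kit, which gives tags near the 3' end of a message, per the labels' protocols. Per the submitters' processing notes, Trim Galore 0.6.4, Salmon 1.9.0 and the build GRCm38 were used; no source used here names the annotation, the strand setting or the way transcripts were summed. The authors deposited estimated counts for 26792 symbols; 12.7% of those above 0 carry decimals, and all were rounded. Another deposited table, which the authors called TPM, was treated as a signal, since its values are proportional to the counts within each library for 25089 of 26783 shared symbols (tolerance 0.01 counts); the remaining 1694 differ. It served alternatives only.

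Counts were tested with edgeR 4.0.16 in R 4.3.3 (quasi-likelihood, TMM, filterByExpr with a minimum count of 10, robust). All 20 pull-downs entered 1 fit with 3 group means, so that castrated mice on HFD add to the estimate of spread; supernatants were fitted alike, and all 40 libraries together with 6 group means for the interaction and the fraction contrast. The common biological coefficient of variation of the pull-downs was 0.217. Calls needed a Benjamini-Hochberg adjusted p under 0.05 over all genes tested, and SE values came from the F statistic. CPM are counts scaled by TMM. Errors hold both counting error and the spread between samples; tags copied by PCR count as separate.

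Named genes were the 12 of smallest p in each direction and the genes without overlap, both at a mean of at least 5 CPM. Genes called by any tool, fixed anchors of each list, and the list members of smallest p in each direction were also named. A few genes that the rule names are not reported here. Of 784 list genes 735 were tested, and 38 stood in more than 1 list. Comparison, members and lists were chosen with earlier results of these data known. Positions are GENCODE M21 entries, matched for 98.3% of tested genes. Alternatives changed the tool (DESeq2 1.42.0, limma 3.58.1), scaling, filter, samples and covariates. Steps were tested on simulated data.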

Additional observations from a re-analysis of the deposited data

Results flagged for a closer look

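A single pull-down stood apart from the others of its diet in 55 of 360 groups of values screened, each being 1 gene or library measure in 1 diet; for independent, normally distributed values chance flags about 1 in 20, and genes of 1 library are not independent. HFD pull-down 1 accounted for 27 of them, chow pull-down 8 for 9 and chow pull-down 12 for 7. The values below are CPM unless another unit is named, and the causes were not tested.

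HFD pull-down 1 was highest for vascular genes, with 485 of Flt1, 21.4 of Tek, 99.7 of Ly6c1, 16.5 of Cldn5, 3.08 of the smooth muscle actin Acta2 and 87.5 of the pericyte and precursor gene Cspg4. It was also highest for neuronal genes, with 86.9 of Snap25, 241 of Syt1 and 73.9 of Pomc, and for glial and mesenchymal genes, with 7.38 of Mog, 12.8 of Pdgfra and 2.97 of P2ry12. Pituitary hormone genes stood at 9.23 for Tshb and 16.0 for Cga. Further highest values were 1102 for mt-Nd1, 119 for Hspb1 and 11.2 for Usp45, whose other HFD values lay between 7.62 and 8.71. The lowest HFD values of several astrocyte and growth genes were in the same pull-down: 16.7 for Mical2, 176 for Phgdh, 11.5 for Ahcy, 3225 for Mt1, 309 for Ncan, 149 for Rps6, 110 for Akt2 and 6.46 for Aspg. Gm42418 took 18.2% and mitochondrially encoded messages 1.32% of its counts.

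Among the other HFD pull-downs, number 9 was highest for the red blood cell genes Hbb-bs (598) and Alas2 (7.43), number 13 for Lifr (151) and number 16 for Hspa8 (775). HFD pull-down 20 had 20792147 counts in all and 14660 genes with at least 10 counts.

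Chow pull-down 8 was highest for the feeding peptides Npy (12.5) and Agrp (6.22), for the vascular genes Tek (17.0) and Flt1 (360), for Syt1 (225) and Hspb1 (59.5) and for the globins Hbb-bs (530.0) and Hba-a1 (238), and lowest for Hopx (8.23). Chow pull-down 12 was highest for Srsf3 (205), Plin2 (34.1), Hspa8 (1021), Gpx4 (39.4) and Slc38a3 (173), and lowest for Notch1 (81.1) and Vldlr (16.6). Chow pull-down 19 was highest for Col1a2 (87.3) and Kl (7.54), number 21 for Hif1a (160.4) and Slc4a4 (5925), and number 23 for Nfkbia (150.1) and Ttr (11.1).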

How the results depend on the processing

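The count of genes called in the pull-down was 0 under 23 of 24 alternatives and 1 under DESeq2 with no filter, an alternative chosen after seeing the data; genes at an unadjusted p under 0.05 numbered 183 to 425 with a filter. In the supernatant and for the interaction every alternative run gave 0 calls. The 25 genes named for a small p or for lack of overlap at a mean of at least 5 CPM kept their sign in every alternative that gave them a value. Rsph3b had a value in 22 of the 24. Plk4, at a mean of 3.14 CPM, was not among the 25. The 25 genes were picked from the same libraries, and this selection favours a stable sign. Of the 151 other named genes, 58 changed sign in at least 1 alternative. In the second table, with pseudocounts of 1 and 0.1, Atf4 had log2 fold changes of 2.60 and 4.01, against 0.07 in the counts; the cause was not tested. The difference in library measures between HFD and chow changed sign without single libraries: it ranged from −785428 to 1327429 for the total count, from −1.87 to 2.10 percentage points for Gm42418, from −0.027 to 0.124 for mitochondrially encoded messages and from −133 to 99.7 for genes with at least 10 counts, where the difference in medians was −131 and that in means 47.0. The fitted astrocyte enrichment ranged from 4.49 to 4.88 over the alternatives. Sample numbers are shared between the fractions of a sample, and the main interaction fit did not use this pairing. Deviations of same-numbered libraries correlated between −0.15 (chow 19) and 0.22 (chow 15), beside at most 0.10 and 0.13 with other numbers of that diet. The same number gave the highest correlation for chow 7, 12, 15, 21 and 23 and for HFD 9. For chow 8 and 19 and HFD 1, 13, 16, 18 and 20 another number did. These correlations do not show whether libraries of the same number came from the same sample. With the replicate block the interaction had 0 calls and 354 genes at an unadjusted p under 0.05. Whole reads could not be recovered from the second table, so that alternative was not run. Depth limits genes under 5 CPM most.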
